A study of Homo sapiens with 12 samples.

Results

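The comparison described here asks, probe set by probe set, whether a miR-16 sponge went with the same change of transcript level in the cell line RPMI8226 as in the cell line MMS1. It was taken over all 12 of the 12 arrays of the series, which fall into 4 groups of 3 by their titles: RPMI8226 with the miR-16 sponge, RPMI8226 with the control sponge, MMS1 with the miR-16 sponge and MMS1 with the control sponge. The sponge groups carry the label "miR16 KO" in their titles and "knock down" or "siRNA" elsewhere, and RPMI8226 is also written RPMI or RPMI826. Every group, controls included, had been transduced with a GFP lentivirus, sorted by flow cytometry and expanded, so the controls are transduced cells with a mock sponge and not untouched cells. The labels do not say whether more than 1 transduced population stood behind a group, so an effect of the sponge and an effect of 1 sorted population cannot be told apart. They also do not tie arrays to separate flasks, so the p-values below measure only the spread between these arrays.

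MicroRNAs are short RNAs that guide Argonaute proteins to matching sites in messenger RNAs, mostly through pairing of their seed, and the targeted messages are degraded or translated less. A sponge is a transcript with repeated binding sites that competes for the microRNA, so direct targets may rise when it is expressed. The miR-15/16 family is encoded in part in a region of 13q that is often deleted in multiple myeloma, and BCL2 and several cell cycle genes are among its reported targets. A difference between lines in the response, called an interaction in a linear model, asks whether the size or direction of a change differs between them.

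The seed that the sponge is meant to occupy is shared by several human microRNAs, which are shown because a site made for miR-16 can also pair with their seeds. In the RefSeq sequences of GRCh38.p14, miR-16-5p is made from MIR16-1 on chromosome 13 (chr13:50049027-50049048, minus strand) and from MIR16-2 on chromosome 3 (chr3:160404754-160404775, plus strand). Mature sequences run 5′ to 3′ and capitals mark the seed, bases 2 to 8.
hsa-miR-16-5p: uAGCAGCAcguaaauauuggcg
hsa-miR-15a-5p: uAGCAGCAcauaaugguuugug
hsa-miR-15b-5p: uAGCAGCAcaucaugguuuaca
hsa-miR-195-5p: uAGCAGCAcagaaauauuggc
hsa-miR-424-5p: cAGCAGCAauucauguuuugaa
hsa-miR-497-5p: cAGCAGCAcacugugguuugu
hsa-miR-6838-5p: aAGCAGCAguggcaagacuccu
The seed AGCAGCA is identical in all of these, and the sequences differ downstream of it. Mature microRNAs were not measured on these arrays, and the sequence of the sponge was not used here.

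Each array gave 1 log2 signal for every probe set, none under a lower bound of 4, and array medians lay between 5.80 and 5.90. The sponge change in a line is the mean of its 3 sponge arrays minus the mean of its 3 control arrays. The line difference is the RPMI8226 change minus the MMS1 change, so a positive value means that the sponge arrays lay higher relative to their controls in RPMI8226 than in MMS1. With 3 arrays a group the median standard error was 0.14 for a change within a line and 0.20 for a line difference, and the smallest line difference that passed was 0.47. A call means an adjusted p under 0.05 in limma's moderated test, two-sided, with Benjamini-Hochberg adjustment over 54613 probe sets, and errors after ± are standard errors of that fit unless named SD. One array stood apart in its control probes: MMS1 sponge replicate 1 had an 18S ribosomal RNA signal of 7.84, against 9.56 to 11.14 on the other 11 arrays. The labelled cell type was checked against its markers. Of 10 plasma cell markers 6 lay below the median gene (6.44). Among these, TNFRSF17 (mean 4.46), JCHAIN (mean 4.20) and CD38 (mean 4.91) lay near the lower bound on the 12 arrays. SDC1 (8.90) and XBP1 (8.51) lay above the upper quartile of genes (7.62), and IRF4 (6.47) and SLAMF7 (6.95) lay between these levels. Of 5 epithelial markers 4 lay above that quartile. Of 8 erythroid markers measured, 7 lay above that quartile, with HBE1 at 14.16 and GATA1 at 9.56, so the arrays did not show the marker pattern of plasma cells in either line. Probe sets differ in brightness, so such ranks are only approximate.

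The response to the sponge differed between the lines for 1167 of 19775 genes, or 5.9%. At an unadjusted p under 0.05, 3968 genes passed. Of the 1167, 520 (2.63% of all genes) had a higher change in RPMI8226 than in MMS1 and 647 (3.27%) had a lower one. Counted as probe sets, 2786 of 54613 (5.1%) passed, 1094 of them higher (2.0%) and 1692 lower (3.1%). Within the lines, the sponge change was called for 43 genes (0.217%) in RPMI8226, 3 higher (0.0152%) and 40 lower (0.202%), and for 2455 genes (12.4%) in MMS1, 858 higher (4.34%) and 1597 lower (8.08%). Values come from whole cultures, so fewer cells of a kind and less RNA per cell cannot be told apart. Each line difference is built from the same arrays as these changes, so the counts are given side by side and not as independent evidence.

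Most of the called line differences were changes of MMS1. In 1008 of the 1167 genes (86.4%) the change was larger in size in MMS1, against 57.8% of all genes, and in 159 it was larger in RPMI8226. In the 520 higher genes the median change was 0.04 in RPMI8226 and -0.80 in MMS1. In the 647 lower genes it was -0.22 in RPMI8226 and 0.56 in MMS1, and over all genes it was -0.02 and -0.04. Of the 647 lower genes, 131 (20.2%) had the larger change in RPMI8226, against 28 of 520 higher genes (5.38%). Picking genes by the line difference itself favours lower RPMI8226 changes in the lower set and higher ones in the higher set. These medians and shares therefore describe the sets and test nothing. Without MMS1 sponge replicate 1, 1160 genes were called and 85.4% had the larger change in MMS1.

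Passing in 1 line and missing in the other does not show a line difference, which is why it was tested itself. Of the 1167 genes, 968 were called in MMS1 and not in RPMI8226, 9 in RPMI8226 and not in MMS1, 14 in both and 176 (15.1%) in neither. Of the 43 genes called in RPMI8226, 23 were called in the line difference. The RPMI8226 count moved most with the settings: 107 probe sets (0.196%) passed there, but 723 without MMS1 sponge replicate 1, 1766 with an intensity trend and a robust prior, and 22 without RPMI8226 control replicate 3. How many RPMI8226 changes stood behind the line differences is therefore poorly fixed by these arrays, while the line differences themselves ranged from 1845 to 4649 probe sets over the alternatives tried.

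**Figure D1:**
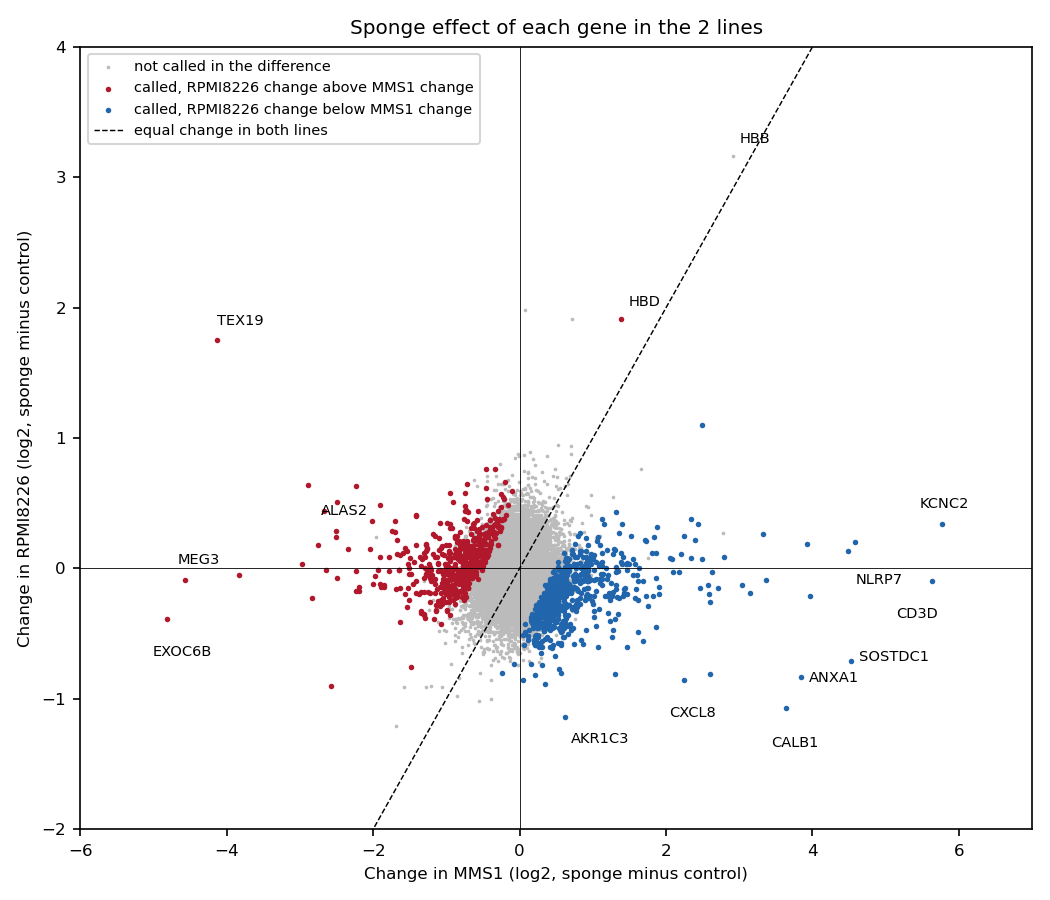
Each point is 1 of 19775 genes, with its sponge change in MMS1 on the horizontal axis and in RPMI8226 on the vertical axis, both in log2 units and drawn at different scales. Coloured points are the 1167 genes with a called line difference. The cloud is wider along the MMS1 axis, TEX19 sits at 1.75 in RPMI8226 and -4.13 in MMS1, and HBB lies close to the dashed line of equal change.

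The same contrast can be read as a shift of the distance between the lines. RPMI8226 and MMS1 differed in 4070 genes (20.6%) on the sponge arrays, 2413 higher in RPMI8226 (12.2%) and 1657 lower (8.38%). On the control arrays they differed in 2041 genes (10.3%), 1289 higher (6.52%) and 752 lower (3.8%). Among the 1167 called genes the lines lay farther apart on the sponge arrays in 705 (60.4%) and closer in 462. That share is near the 60.1% found over all genes, so widening was not particular to the called genes. By sign alone, the line higher with the sponge was the lower one with the control in 777 of the 1167 (66.6%). No call on either set of arrays was required, so near-equal lines also count, such as CD3D at 0.01 on the control arrays. Picking genes for a large difference favours such a turn, so this share describes them and tests nothing.

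The sponge change had opposite signs in the lines in 845 of the 1167 genes (72.4%), against 47.5% of all genes. Since the genes were picked for a large difference, this share describes them and tests nothing. In 10 genes both changes were called with opposite signs. With an intensity trend and a robust prior they were 136, and leaving out 1 array gave 3 to 26, the highest without MMS1 sponge replicate 1. The 6 with the largest smaller change are described here, first TEX19, a gene of germ cells and early embryos that restrains retrotransposons in mice. TEX19 had log2 signals of 10.09, 10.03 and 9.90 on the RPMI8226 sponge arrays, 8.22, 8.25 and 8.30 on the RPMI8226 control arrays, 7.90, 7.76 and 7.74 on the MMS1 sponge arrays, and 11.95, 11.90 and 11.97 on the MMS1 control arrays. The 4 groups did not overlap, and the order of the lines was turned: RPMI8226 was higher with the sponge and MMS1 was higher with the control. The change was 1.75 ± 0.09 in RPMI8226 and -4.13 ± 0.09 in MMS1, a line difference of 5.88 ± 0.13 (adjusted p = 4.88e-11).

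The other 5 genes ran the opposite way, lower with the sponge in RPMI8226 and higher in MMS1. CALB1, which encodes the calcium buffer calbindin, had 5.37, 5.27 and 5.26 on the RPMI8226 sponge arrays, 6.31, 6.46 and 6.34 on the RPMI8226 controls, 8.74, 8.35 and 8.35 on the MMS1 sponge arrays, and 4.87, 4.86 and 4.80 on the MMS1 controls. The groups did not overlap, and its line difference was -4.71 ± 0.16 (adjusted p = 3.33e-09). ANXA1, which encodes a phospholipid-binding annexin that limits inflammation, had 9.88, 9.95 and 9.88 on the RPMI8226 sponge arrays, 10.72, 10.76 and 10.74 on the RPMI8226 controls, 11.36, 11.17 and 11.10 on the MMS1 sponge arrays, and 7.34, 7.20 and 7.55 on the MMS1 controls. The MMS1 controls stood alone at the low end, and the line difference was -4.68 ± 0.16 (adjusted p = 2.56e-09). In both genes the other probe set was called the same way.

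IGFBP2, which encodes a carrier of insulin-like growth factors, had 7.77, 7.83 and 7.80 on the RPMI8226 sponge arrays, 8.64, 8.63 and 8.55 on the RPMI8226 controls, 9.32, 9.14 and 9.04 on the MMS1 sponge arrays, and 6.60, 6.44 and 6.65 on the MMS1 controls. The groups did not overlap, and the line difference was -3.41 ± 0.15 (adjusted p = 2.47e-08). CXCL8, the neutrophil-attracting chemokine interleukin-8, had 6.81, 6.82 and 6.63 on the RPMI8226 sponge arrays, 7.58, 7.57 and 7.68 on the RPMI8226 controls, 8.78, 8.59 and 8.66 on the MMS1 sponge arrays, and 6.48, 6.11 and 6.74 on the MMS1 controls. Here the RPMI8226 sponge arrays and the MMS1 controls overlapped at the low end, and the line difference was -3.10 ± 0.20 (adjusted p = 1.27e-06). GAS2, a growth-arrest gene whose product binds actin and microtubules, had a change of -0.81 ± 0.13 in RPMI8226 and 1.30 ± 0.13 in MMS1 (line difference -2.11 ± 0.19, adjusted p = 2.39e-05). Its RPMI8226 control arrays (6.11 to 6.38) and MMS1 sponge arrays (6.08 to 6.20) overlapped, above the RPMI8226 sponge arrays (5.14 to 5.57) and the MMS1 controls (4.69 to 4.99).

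**Figure D2:**
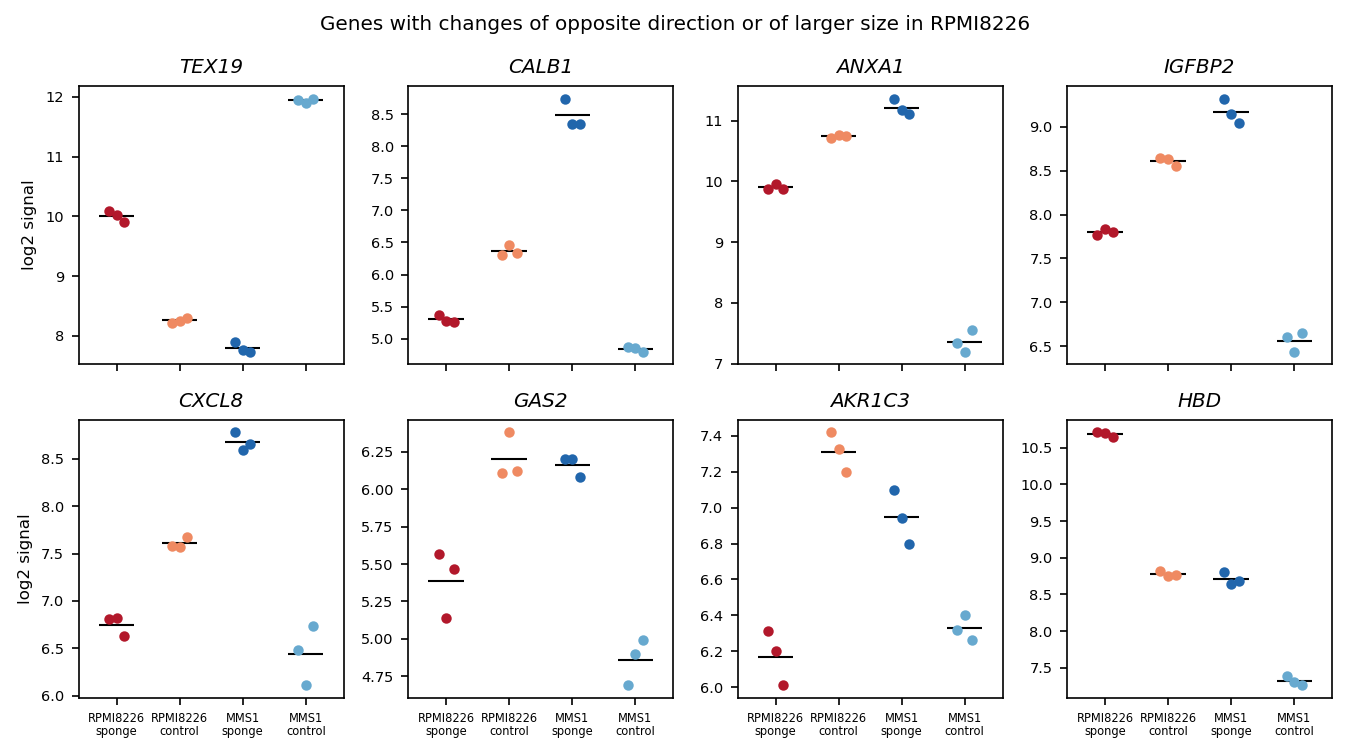
Log2 signal of 8 genes on each of the 12 arrays, grouped by line and sponge, with the group mean as a bar. The vertical axes differ between panels and do not start at 0. TEX19 is higher with the sponge in RPMI8226 and lower in MMS1, the next 5 genes show the reverse, and HBD is higher with the sponge in both lines.

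Genes with the larger change in RPMI8226 were few. Among genes called in RPMI8226 and in the line difference, HBD was the only one that passed as higher with a larger change there. HBD, which encodes the delta chain of adult hemoglobin, had 10.71, 10.70 and 10.65 on the RPMI8226 sponge arrays, 8.82, 8.75 and 8.77 on the RPMI8226 controls, 8.81, 8.64 and 8.68 on the MMS1 sponge arrays, and 7.38, 7.30 and 7.26 on the MMS1 controls. The sponge arrays were higher in both lines, by 1.91 ± 0.09 in RPMI8226 and 1.39 ± 0.09 in MMS1, and the line difference of 0.52 ± 0.13 passed narrowly (adjusted p = 0.0362). Leaving out an array ended the call for 11 of the 12 arrays, at an adjusted p of 0.0579 to 0.0951, and MMS1 sponge replicate 1 was the exception.

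The same criterion was met by 12 lower genes, of which the 5 with the largest RPMI8226 change are given. AKR1C3, a steroid- and prostaglandin-reducing enzyme gene, had 6.31, 6.20 and 6.01 on the RPMI8226 sponge arrays, 7.42, 7.33 and 7.20 on the RPMI8226 controls, 7.10, 6.94 and 6.80 on the MMS1 sponge arrays, and 6.32, 6.40 and 6.26 on the MMS1 controls. The sponge arrays lay below their controls in RPMI8226 and above them in MMS1, with a line difference of -1.76 ± 0.16 (adjusted p = 3.57e-05). RABGGTB, a subunit of the enzyme that adds geranylgeranyl groups to RAB proteins, also fell in RPMI8226 (-0.80 ± 0.14) and rose in MMS1 (0.56 ± 0.14), with a line difference of -1.37 ± 0.20 (adjusted p = 0.0014). PLCL1, a phospholipase C relative without catalytic activity, fell by 0.89 in RPMI8226 and gave 0.35 in MMS1 (adjusted p = 0.0742), a line difference of -1.24 ± 0.16. DELEC1, a gene named for its deletion in esophageal cancer, lay at or near the bound on the RPMI8226 sponge arrays (4.0, 4.27 and 4.0), against 4.75 to 5.09 on the RPMI8226 controls. With 2 of the 3 sponge arrays at the bound, its line difference of -1.03 (adjusted p = 0.0102) is a least size. H2BC12, a histone H2B gene, fell in RPMI8226 (-0.80 ± 0.10) and gave -0.24 ± 0.10 in MMS1 (adjusted p = 0.16). Its line difference of -0.56 ± 0.14 (adjusted p = 0.0367) was lost without any of 9 arrays, 6 of RPMI8226 and 3 MMS1 controls (adjusted p = 0.0567 to 0.0899).

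Most of the largest positive line differences after TEX19 were genes whose signal was highest on the MMS1 control arrays and lower on the other 9. MEG3, an imprinted long noncoding RNA with growth-restraining activity, had 5.39, 5.67 and 5.62 on the RPMI8226 sponge arrays, 5.85, 5.45 and 5.65 on the RPMI8226 controls, 5.68, 5.97 and 6.01 on the MMS1 sponge arrays, and 10.15, 10.51 and 10.71 on the MMS1 controls. The first 3 groups overlapped and the MMS1 controls stood apart, a line difference of 4.48 ± 0.22 (adjusted p = 1.17e-07). Of 9 further MEG3 probe sets, 7 had the same sign and 3 of them were called. EXOC6B, an exocyst subunit gene, had 5.41, 5.89 and 5.30 on the RPMI8226 sponge arrays, 5.84, 5.88 and 6.04 on the RPMI8226 controls, 5.34, 6.13 and 5.21 on the MMS1 sponge arrays, and 10.40, 10.36 and 10.37 on the MMS1 controls. It showed the same layout, with a line difference of 4.43 ± 0.30 (adjusted p = 1.75e-06). MFNG, a glycosyltransferase that modifies Notch receptors, differed by 3.80 ± 0.24. FYB1, an adaptor of immune receptor signalling, differed by 3.01 ± 0.15, and PLA2G2A, a secreted phospholipase, by 2.93 ± 0.22. The noncoding RNA LINC00462 differed by 3.0, a least size since 2 of its 3 RPMI8226 control arrays lay at the bound. With the mean over a gene's probe sets the difference was 1.34 for MEG3 and 2.11 for MFNG.

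In CHMP6 and NSG1 the RPMI8226 arrays lay between the MMS1 groups. CHMP6, a subunit of the membrane-cutting ESCRT machinery, averaged 6.64 on the RPMI8226 sponge arrays, 6.20 on the RPMI8226 controls, 4.98 on the MMS1 sponge arrays and 7.65 on the MMS1 controls (line difference 3.12 ± 0.19, adjusted p = 7.15e-07). NSG1, a protein of neuronal endosomes, was laid out likewise, with a line difference of 2.86 ± 0.25. RAP1A, a small GTPase gene high on the MMS1 controls, gave 3.53 ± 0.41 (adjusted p = 0.000232), but of its 3 other probe sets 1 was called the same way and 1 the opposite way, so its line difference depends on the probe set. With the mean over probe sets it was 1.79, and that of NSG1 was 0.94.

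The 10 largest negative line differences were genes high on the MMS1 sponge arrays. CD3D, which encodes the delta chain of the T cell receptor complex, had 6.63, 6.75 and 6.67 on the RPMI8226 sponge arrays, 6.66, 6.66 and 7.01 on the RPMI8226 controls, 12.58, 12.37 and 12.29 on the MMS1 sponge arrays, and 6.88, 6.78 and 6.66 on the MMS1 controls. Its line difference was -5.74 ± 0.17 (adjusted p = 1.25e-09). The other 6 T cell markers measured lay between 4.87 and 5.95 on average, and 0 of them passed (adjusted p = 0.426 to 0.952). The summed log2 signal of the 7 markers, CD3D included, was 39.5 to 40.6 on the RPMI8226 sponge arrays and 39.3 to 40.7 on the RPMI8226 controls. It was 45.7 to 47.2 on the MMS1 sponge arrays and 39.0 to 40.0 on the MMS1 controls. CD3D itself rose by 5.64 in MMS1, so this sum is no separate check of it. The part of other cells in the CD3D signal was not tested.

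KCNC2, a voltage-gated potassium channel gene, had 7.92, 7.60 and 8.09 on the RPMI8226 sponge arrays, 7.65, 7.38 and 7.56 on the RPMI8226 controls, 10.13, 10.18 and 10.22 on the MMS1 sponge arrays, and 4.29, 4.46 and 4.47 on the MMS1 controls. RPMI8226 lay between the MMS1 groups, and the line difference was -5.43 ± 0.18 (adjusted p = 2.56e-09). NLRP7, a gene of oocytes and of innate immunity, was laid out similarly, at 8.48 to 8.60 on the RPMI8226 sponge arrays, 8.37 to 8.47 on the RPMI8226 controls, 9.23 to 9.58 on the MMS1 sponge arrays and 4.82 to 5.0 on the MMS1 controls (-4.37 ± 0.15). SOSTDC1, an antagonist of BMP and WNT signals, had 5.95, 5.79 and 5.20 on the RPMI8226 sponge arrays, 6.19, 6.21 and 6.68 on the RPMI8226 controls, 8.72, 8.39 and 8.48 on the MMS1 sponge arrays, and the bound of 4.0 on all 3 MMS1 controls. It was at least 23.1-fold higher on the sponge arrays in MMS1, so the line difference of -5.24 (adjusted p = 1.17e-07) is a least size.

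Of the rest, MUC19, a gel-forming mucin gene, differed by -4.38 ± 0.18 and CSDC2, an RNA-binding cold shock domain gene, by -3.74 ± 0.23. PRDM11, a member of the PRDM family of chromatin factors, gave -3.45 ± 0.21, but 0 of its 5 other probe sets were called and 1 had the same sign. With the mean over probe sets PRDM11 gave -0.37 (not called) and KCNC2 -2.93. PRG2, the major basic protein gene of eosinophils, averaged 5.72 on the RPMI8226 sponge arrays, 5.93 on the RPMI8226 controls, 9.87 on the MMS1 sponge arrays and 5.89 on the MMS1 controls (-4.18 ± 0.22, adjusted p = 1.78e-07). Among 7 granulocyte markers PRG2 was the one that passed. The others averaged 4.67 to 6.42. The summed log2 signal, PRG2 included, was 39.4 to 39.6 on the RPMI8226 sponge arrays and 39.4 to 40.3 on the RPMI8226 controls. It was 44.0 to 44.8 on the MMS1 sponge arrays and 39.5 to 40.1 on the MMS1 controls. PRG2 itself rose by 3.97 in MMS1, so this sum is no separate check of it.

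Of the 27 gene lists, globin genes (50%) and red cell membrane genes (45.5%) had the highest shares of called members, beside 5.9% of all genes. The lists are short and were chosen with earlier results known, so these shares are a description. Hemoglobin synthesis needs globin chains, heme made from glycine and succinyl-CoA by a chain of enzymes, and transcription factors such as GATA1 and KLF1 that switch on both. Of 6 globin genes 3 were higher in the line difference and 0 lower (at an unadjusted p under 0.05, 3 higher and 1 lower), with a median of 0.39 against 0.04 over all genes. Of 17 heme and iron genes 6 were higher and 0 lower (7 and 2 unadjusted, median 0.21). Of 22 membrane and blood group genes 7 were higher and 3 lower (median 0.37), and of 15 erythroid transcription factors 4 were higher and 1 lower (median 0.32). The heme count varied from 2 higher (without MMS1 control replicate 1) to 7, and the membrane count from 4 (without RPMI8226 control replicate 2 or MMS1 control replicate 1) to 8. Without any of 11 arrays the globin count was 2.

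The beta-globin gene HBB showed no called line difference. It had 13.67, 13.76 and 13.70 on the RPMI8226 sponge arrays, 10.60, 10.52 and 10.51 on the RPMI8226 controls, 11.69, 11.64 and 11.68 on the MMS1 sponge arrays, and 8.58, 8.89 and 8.82 on the MMS1 controls. The sponge arrays lay above their controls by 3.16 ± 0.10 in RPMI8226 and 2.91 ± 0.10 in MMS1, from different levels, with a line difference of 0.26 (95% interval -0.05 to 0.56, adjusted p = 0.375). HBZ, the embryonic zeta chain, had 12.94, 13.02 and 13.04 on the RPMI8226 sponge arrays, 13.03, 13.01 and 12.99 on the RPMI8226 controls, 12.05, 12.16 and 12.20 on the MMS1 sponge arrays, and 14.13, 14.02 and 14.07 on the MMS1 controls. The RPMI8226 groups overlapped and lay between the MMS1 groups, and the line difference was 1.92 ± 0.13 (adjusted p = 1.66e-06). HBQ1, the theta globin gene, differed by 1.07 ± 0.18 (adjusted p = 0.00397). The 6 globins did not run one way. HBB and HBD were higher with the sponge in both lines, and HBZ and HBQ1 were lower in MMS1 with -0.01 and 0.08 in RPMI8226. The embryonic epsilon gene HBE1 was lower in RPMI8226 (-0.49, adjusted p = 0.046) and gave -0.21 in MMS1, a line difference of -0.28 (adjusted p = 0.234), and HBM, the mu globin gene, gave 0.15 (adjusted p = 0.687).

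Among heme genes, 10 of 17 estimates were positive and 7 negative, and the list's median fell to 0.02 at its lowest over the alternatives. ALAS2, the erythroid form of the first and rate-limiting enzyme of heme synthesis, had 9.66, 9.54 and 9.57 on the RPMI8226 sponge arrays, 9.35, 9.26 and 9.29 on the RPMI8226 controls, 7.75, 7.11 and 7.32 on the MMS1 sponge arrays, and 9.96, 9.81 and 9.94 on the MMS1 controls. The MMS1 sponge arrays stood alone at the low end, and the line difference was 2.80 ± 0.20 (adjusted p = 2.55e-06), or 1.59 with the mean over its probe sets. ALAS1, the form used in all tissues, differed by 0.63 ± 0.13 (adjusted p = 0.0153) although neither single change was called, at 0.37 in RPMI8226 and -0.26 in MMS1. The mitochondrial iron importer SLC25A37 differed by 0.67 ± 0.15 (adjusted p = 0.0177), and lost its call without RPMI8226 control replicate 3 or MMS1 control replicate 1. Of its other 9 probe sets 8 had the same sign, 2 were called the same way and 1 the opposite way. PPOX (0.58), UROD (0.58) and the heme-related transporter ABCB10 (0.59) made up the 6.

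Among regulators, KLF1, the Krüppel-like factor that activates the adult beta-globin promoter, had 9.63, 9.62 and 9.43 on the RPMI8226 sponge arrays, 9.78, 9.68 and 9.65 on the RPMI8226 controls, 7.88, 7.96 and 8.11 on the MMS1 sponge arrays, and 9.87, 9.69 and 9.94 on the MMS1 controls. The MMS1 sponge arrays lay well below the other 9, with a line difference of 1.70 ± 0.15 (adjusted p = 2.73e-05). GFI1B, a repressor needed for red cell and platelet formation, differed by 1.08 ± 0.15, its GATA1 partner ZFPM1 by 0.92 ± 0.14 (0.40 and not called with the mean over probe sets) and the TAL1 relative LYL1 by 1.01 ± 0.17. GATA2, a factor of earlier progenitors, differed the other way by -0.71 ± 0.14 (adjusted p = 0.0112). GATA1 itself gave 0.08 (adjusted p = 0.825), with changes of -0.33 in RPMI8226 and -0.41 in MMS1.

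Membrane genes moved both ways within MMS1. RHAG, the Rh-associated glycoprotein, had 10.46, 10.47 and 10.22 on the RPMI8226 sponge arrays, 10.47, 10.61 and 10.52 on the RPMI8226 controls, 10.11, 9.74 and 9.84 on the MMS1 sponge arrays, and 7.43, 7.40 and 7.46 on the MMS1 controls. The MMS1 controls were the low group, and the line difference was -2.62 ± 0.16 (adjusted p = 1.02e-06). CA1, a red cell carbonic anhydrase, had 5.78 to 6.47 on the RPMI8226 sponge, RPMI8226 control and MMS1 sponge arrays, against 8.72, 8.50 and 8.85 on the MMS1 controls, a line difference of 2.74 ± 0.21 (adjusted p = 5.4e-06), or 1.31 with the mean over its probe sets. Its relative CA2 differed the opposite way by -1.97 ± 0.24. CD36, a scavenger receptor of early red cell precursors, had 10.03, 9.94 and 9.77 on the RPMI8226 sponge arrays, 10.41, 10.53 and 10.48 on the RPMI8226 controls, 7.65, 7.36 and 7.43 on the MMS1 sponge arrays, and 5.48, 5.91 and 6.0 on the MMS1 controls. The groups did not overlap, and the lines lay closer on the sponge arrays (-2.24 ± 0.20, adjusted p = 2.27e-05). ERMAP (1.79), RHD (1.42) and the spectrin and ankyrin genes SPTB (1.18) and ANK1 (0.86) were higher in the difference, each through a lower signal with the sponge in MMS1.

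**Figure D3:**
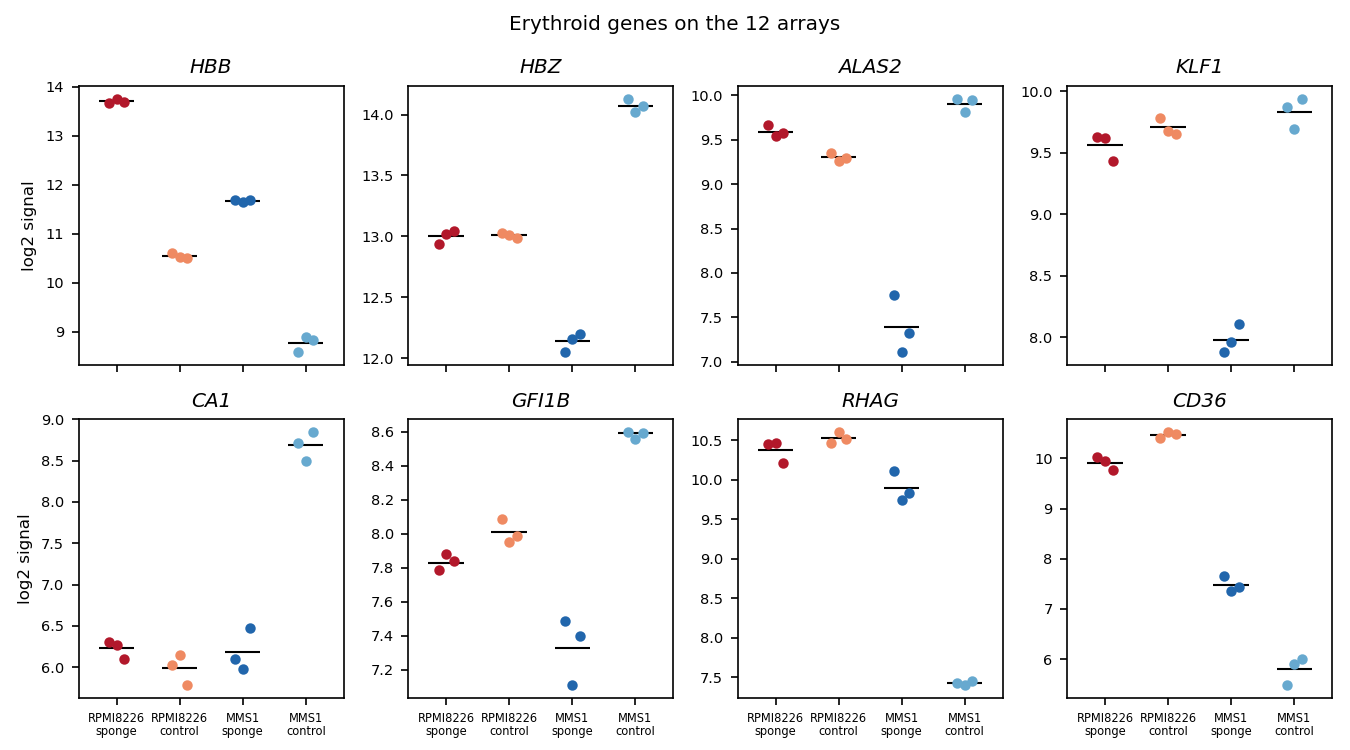
Log2 signal of 8 red cell genes on each of the 12 arrays, with group means as bars and axes that do not start at 0. HBB is higher with the sponge in both lines. HBZ, ALAS2, KLF1, CA1 and GFI1B are lower with the sponge in MMS1, and RHAG and CD36 are higher there.

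Promoters of a pair of these genes are shown because the genes share a motif yet differed in direction. Each is the RefSeq sequence of GRCh38.p14 from 250 bases before to 50 after the gene's start, read along the gene. Capitals mark AGATAA or TGATAA, letters bound by GATA factors, and CCNCNCCC, letters bound by Krüppel-like factors, each searched on both strands with overlapping matches merged. ALAS2 lies at chrX:55030928-55031227 and RHAG at chr6:49636790-49637089, both on the minus strand.
ALAS2: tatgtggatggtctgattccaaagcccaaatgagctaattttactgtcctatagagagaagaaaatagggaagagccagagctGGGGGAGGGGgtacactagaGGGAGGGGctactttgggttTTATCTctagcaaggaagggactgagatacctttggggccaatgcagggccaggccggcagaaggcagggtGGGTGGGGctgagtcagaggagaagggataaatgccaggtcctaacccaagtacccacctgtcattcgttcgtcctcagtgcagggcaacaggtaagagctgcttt
RHAG: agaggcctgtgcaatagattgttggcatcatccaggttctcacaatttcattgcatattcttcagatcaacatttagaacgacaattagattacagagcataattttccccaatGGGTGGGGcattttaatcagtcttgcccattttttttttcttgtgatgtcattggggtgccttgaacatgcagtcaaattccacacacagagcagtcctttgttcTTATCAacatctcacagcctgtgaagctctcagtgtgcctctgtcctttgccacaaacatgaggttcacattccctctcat
Both windows hold 1 GATA match, and ALAS2 holds 4 matches of the second motif and RHAG 1. Over all 15384 genes with a promoter in the table, 12% hold a GATA match and 67.1% the second motif. The shares were 10.3% and 72.5% of 418 promoters of genes higher in the line difference, and 9.5% and 70.0% of 516 promoters of lower genes. A match is a description of the letters and not evidence of binding.

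Of 32 reported targets of miR-16, 2 were higher and 1 was lower in the line difference, which is 9.38% beside 5.9% of all genes, and the median was 0.00. Over the alternatives tried, 1 to 4 were higher and 1 to 5 lower. Within MMS1, 3 of the 32 were called higher with the sponge and 9 lower, beside 4.34% and 8.08% of all genes. In RPMI8226 0 were called. At an unadjusted p under 0.05, 0 were higher and 9 lower there, beside 14.3% of all genes in either direction. BCL2, the inhibitor of cell death that is the best known target, had 6.58 to 6.82 on the RPMI8226 sponge arrays, 6.59 to 6.75 on the RPMI8226 controls, 6.50 to 6.61 on the MMS1 sponge arrays and 6.63 to 6.73 on the MMS1 controls. The MMS1 sponge arrays lay at the low end, below the MMS1 controls, but overlapped both RPMI8226 groups. The line difference of BCL2 was 0.18 (95% interval -0.13 to 0.48, adjusted p = 0.565). JUN, a subunit of the AP-1 transcription factor, had 8.48, 8.30 and 8.22 on the RPMI8226 sponge arrays, 8.23, 8.23 and 8.24 on the RPMI8226 controls, 8.55, 8.44 and 8.63 on the MMS1 sponge arrays, and 7.51, 7.43 and 7.63 on the MMS1 controls. The MMS1 controls were low and the others overlapped, a line difference of -0.92 ± 0.15 (adjusted p = 0.00273), and averaging its probe sets gave -0.46. ETS1, a transcription factor gene, gave 1.17 ± 0.16 (adjusted p = 0.000746), but the mean over its 3 probe sets gave -0.09 (adjusted p = 0.818). PURA, which encodes a DNA- and RNA-binding protein, gave 0.65 ± 0.14 (adjusted p = 0.0176) and lost its call without RPMI8226 sponge replicate 2 (adjusted p = 0.0524) or with the mean over probe sets (0.41, adjusted p = 0.0856). The host genes of the miR-15/16 clusters gave -0.04 for DLEU2 (95% interval -0.40 to 0.32, adjusted p = 0.932) and -0.60 for SMC4 (-0.97 to -0.23, adjusted p = 0.0616). SMC4 passed without MMS1 control replicate 3 (adjusted p = 0.0356), among brighter probe sets and with an intensity trend. Of 16 microRNA processing genes 0 were called by limma, and 2 were higher and 2 lower at an unadjusted p under 0.05.

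Of 28 DNA replication genes 14 were lower with the sponge in MMS1, beside 8.08% of all genes. In RPMI8226 0 were (2 at an unadjusted p under 0.05), which is near the 0.202% of all genes called lower there. The line difference was positive in 27, and 7 were called higher, beside 2.63% of all genes, and 0 lower (12 and 0 at an unadjusted p under 0.05), with medians of -0.06 in RPMI8226 and -0.37 in MMS1. TK1, the thymidine kinase of S phase, had 9.61, 9.63 and 9.62 on the RPMI8226 sponge arrays, 9.51, 9.56 and 9.52 on the RPMI8226 controls, 9.12, 9.24 and 9.29 on the MMS1 sponge arrays, and 10.25, 10.13 and 10.18 on the MMS1 controls. RPMI8226 lay between the MMS1 groups, a line difference of 1.05 ± 0.13 (adjusted p = 0.000354). CDC45 (0.91 ± 0.13) and GINS2 (0.81 ± 0.13), which form the replicative helicase with the MCM proteins, and MCM6 (0.93), MCM10 (0.74), MCM7 (0.61) and MCM2 (0.54) were the others. With the mean over probe sets GINS2 gave 0.19 and was not called. Over the alternatives tried, 5 to 11 were called higher and 0 lower. Mitosis genes gave few calls in the difference, with medians of -0.14 in RPMI8226 and -0.17 in MMS1. Of 30 mitosis genes 7 were lower with the sponge in MMS1 and 1 higher, beside 8.08% and 4.34% of all genes. In the line difference 1 of the 30 was lower and 0 higher (3 and 3 unadjusted), or 3.33% beside 5.9% of all genes. The one called there was ANLN, the actin-binding scaffold of the cleavage furrow (-1.17 ± 0.22, adjusted p = 0.0068). Over the alternatives tried, 0 to 4 mitosis genes were higher and 1 to 2 lower.

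Of 25 interferon response genes 7 were higher in the line difference, beside 2.63% of all genes, and 0 lower (10 and 0 at an unadjusted p under 0.05), with medians of 0.03 in RPMI8226 and -0.20 in MMS1. ISG15, a ubiquitin-like modifier, had 8.73, 8.80 and 8.85 on the RPMI8226 sponge arrays, 8.18, 8.28 and 8.40 on the RPMI8226 controls, 8.10, 8.31 and 8.28 on the MMS1 sponge arrays, and 9.25, 9.09 and 9.07 on the MMS1 controls. Sponge arrays lay above controls in RPMI8226 (0.51, adjusted p = 0.0713) and below them in MMS1 (-0.91), and the order of the lines differed between sponge and control arrays (line difference 1.41 ± 0.15, adjusted p = 8.95e-05). OAS3, a sensor of double-stranded RNA, differed by 1.01 ± 0.17 (0.43 with the mean over probe sets), and its 1 other probe set had the opposite sign. The viral entry inhibitor IFITM3 differed by 0.78 ± 0.14, USP18 by 1.17, IFIT3 by 0.97, IRF7 by 0.86 and IFIH1 by 0.71. Leaving aside ISG15 and IRF7 (0.66 in RPMI8226 and -0.20 in MMS1), the called members had RPMI8226 changes between -0.20 and 0.21.

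Genes of the unfolded protein response, which raises chaperones when proteins misfold in the endoplasmic reticulum, gave negative calls. Of 23, 6 were lower in the line difference, beside 3.27% of all genes, and 0 higher (13 and 1 at an unadjusted p under 0.05), with medians of -0.08 in RPMI8226 and 0.23 in MMS1 and a median difference of -0.37. HSPA5, the main chaperone there, had 10.17, 10.23 and 10.19 on the RPMI8226 sponge arrays, 10.23, 10.29 and 10.31 on the RPMI8226 controls, 11.49, 11.14 and 11.06 on the MMS1 sponge arrays, and 10.07, 10.03 and 9.98 on the MMS1 controls. The MMS1 sponge arrays stood apart, a line difference of -1.28 ± 0.16 (adjusted p = 0.000445). Its 1 other probe set had the opposite sign, and the mean of both gave -0.49 (adjusted p = 0.0806), which was not called. HSP90B1 (-1.16 ± 0.18), a chaperone of the same compartment, had -0.50 in RPMI8226 (adjusted p = 0.119) and 0.66 in MMS1, and gave -0.75 with the mean over probe sets. The disulfide isomerases PDIA6 (-0.90) and PDIA4 (-0.64), calnexin (CANX, -0.63) and the cochaperone DNAJB9 (-0.66) completed the 6. The count was 4 to 12 over the alternatives tried. Of 22 genes of the ATF4 and amino acid response, 3 were lower, among them SESN2, a leucine sensor (-0.81 ± 0.14), and the cystine transporter gene SLC7A11 (-0.85 ± 0.18).

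Of 12 epithelial genes 5 were lower and 0 higher (6 and 0 unadjusted), beside 3.27% of all genes lower, and 6 were higher with the sponge in MMS1, beside 4.34% of all genes. KRT8, a simple keratin gene, had 11.39, 11.42 and 11.49 on the RPMI8226 sponge arrays, 11.78, 11.64 and 11.66 on the RPMI8226 controls, 11.99, 11.93 and 11.78 on the MMS1 sponge arrays, and 9.31, 9.26 and 9.33 on the MMS1 controls. The MMS1 controls were the low group, and the line difference was -2.86 ± 0.13 (adjusted p = 7.75e-08). CD24, a surface glycoprotein, differed by -2.70 ± 0.14 with all 5 other probe sets called the same way, and KRT18 by -1.21 ± 0.13, EPCAM by -0.90 and KRT19 by -0.57. CDH1, the epithelial cadherin, gave -0.07 (adjusted p = 0.859). The summed log2 signal of 5 epithelial markers was 46.6 to 46.8 on the RPMI8226 sponge arrays and 47.4 to 47.8 on the RPMI8226 controls. It was 48.5 to 49.4 on the MMS1 sponge arrays and 43.8 to 44.5 on the MMS1 controls. The called genes KRT8, KRT18, EPCAM and KRT19 are in this sum, so it is no separate check of them. The part of other cells in it was not tested. Of 25 adhesion and matrix genes 4 were lower (16%) and 0 higher (6 and 0 unadjusted), while 7 estimates were positive: ANXA1, fibronectin (FN1, -1.60 ± 0.13, with all 6 other probe sets called the same way), the metalloproteinase inhibitor TIMP3 (-1.46 ± 0.20) and the integrin gene ITGA4 (-1.26).

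The remaining lists gave calls in both directions or few calls, beside 5.9% of all genes (2.63% higher, 3.27% lower). Called shares were 28% for immediate early and ERK feedback genes, 17.9% for hypoxia and glycolysis, 16% for respiratory chain and 11.1% for cholesterol genes. They were 21.7% for BMP, ID and WNT modulators, 15.8% for p53 targets and 13% for NF-kB and chemokine genes. NRF2 and AKR1C genes had 10.5%, germ cell and imprinted genes 17.4%, T cell genes 11.8% and granulocyte and mast cell genes 11.1%. Of 25 immediate early and ERK feedback genes 5 were lower and 2 higher: the ERK phosphatase gene DUSP4 differed by -0.99, SPRY2, a feedback inhibitor, by -1.22, IER3 by -0.89 and DUSP1 by -0.84 (-0.29 and not called with the mean over probe sets), while JUNB differed by 0.64. The higher count was 0 to 2 over the alternatives tried. Of 28 hypoxia and glycolysis genes 3 were lower and 2 higher, BNIP3, a mitophagy receptor, by -0.79 ± 0.13 and the phosphofructokinase gene PFKP by 0.80 ± 0.14 (0.39 and not called with the mean over probe sets). The lower count was 1 to 11, the highest with an intensity trend and a robust prior and the lowest without RPMI8226 sponge replicate 3, RPMI8226 control replicates 2 or 3, or MMS1 control replicate 2. Of 25 respiratory chain genes 3 were lower and 1 higher, with NDUFV2 of complex I at -0.75 ± 0.13, and the lower count ranged from 2 to 10 over the alternatives tried. Of 18 cholesterol synthesis genes 2 were lower and 0 higher (3 and 0 unadjusted). SQLE, squalene epoxidase, averaged 9.97 on the RPMI8226 sponge arrays, 10.57 on the RPMI8226 controls, 10.19 on the MMS1 sponge arrays and 9.12 on the MMS1 controls. It was called in both lines with opposite signs, a line difference of -1.68 ± 0.15 (adjusted p = 2.83e-05). Of 23 BMP, ID and WNT modulators 4 were higher and 1 lower, with ID2, an inhibitor of differentiation, at 1.15 ± 0.20. The higher count was 1 without RPMI8226 sponge replicate 1, RPMI8226 control replicates 1 or 2, or MMS1 control replicate 2. Of 19 p53 target genes 1 was higher, the repair gene XPC (1.03 ± 0.14), and 2 were lower, PMAIP1 (-0.93 ± 0.18) and CDKN1A (-0.65 ± 0.16). CDKN1A lost its call without any of 10 arrays and with the replicate block. Of 23 NF-kB and chemokine genes 1 was higher, the NF-kB inhibitor NFKBIA (0.62, or 0.36 and not called with the mean over probe sets), and 2 were lower, CXCL8 and the cytokine gene IL6 (-1.03). Of 23 germ cell and imprinted genes 2 were higher, TEX19 and MEG3, and 2 lower, PLAGL1 (-1.38) and DLK1. Of 19 NRF2 and AKR1C genes 2 were lower, AKR1C3 and SLC7A11. Of 17 T cell genes 2 were lower, CD3D and CD7 (-0.72), and of 18 granulocyte and mast cell genes 2, PRG2 and MS4A3 (-1.73). Of 19 plasma cell genes 0 were called by limma (0 unadjusted), of 14 megakaryocyte genes 0 (1 unadjusted) and of 20 ribosomal protein genes 0 (2 unadjusted). At 5.9% of all genes, lists of this size would hold few calls, so a count of 0 says little about them.

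**Figure D4:**
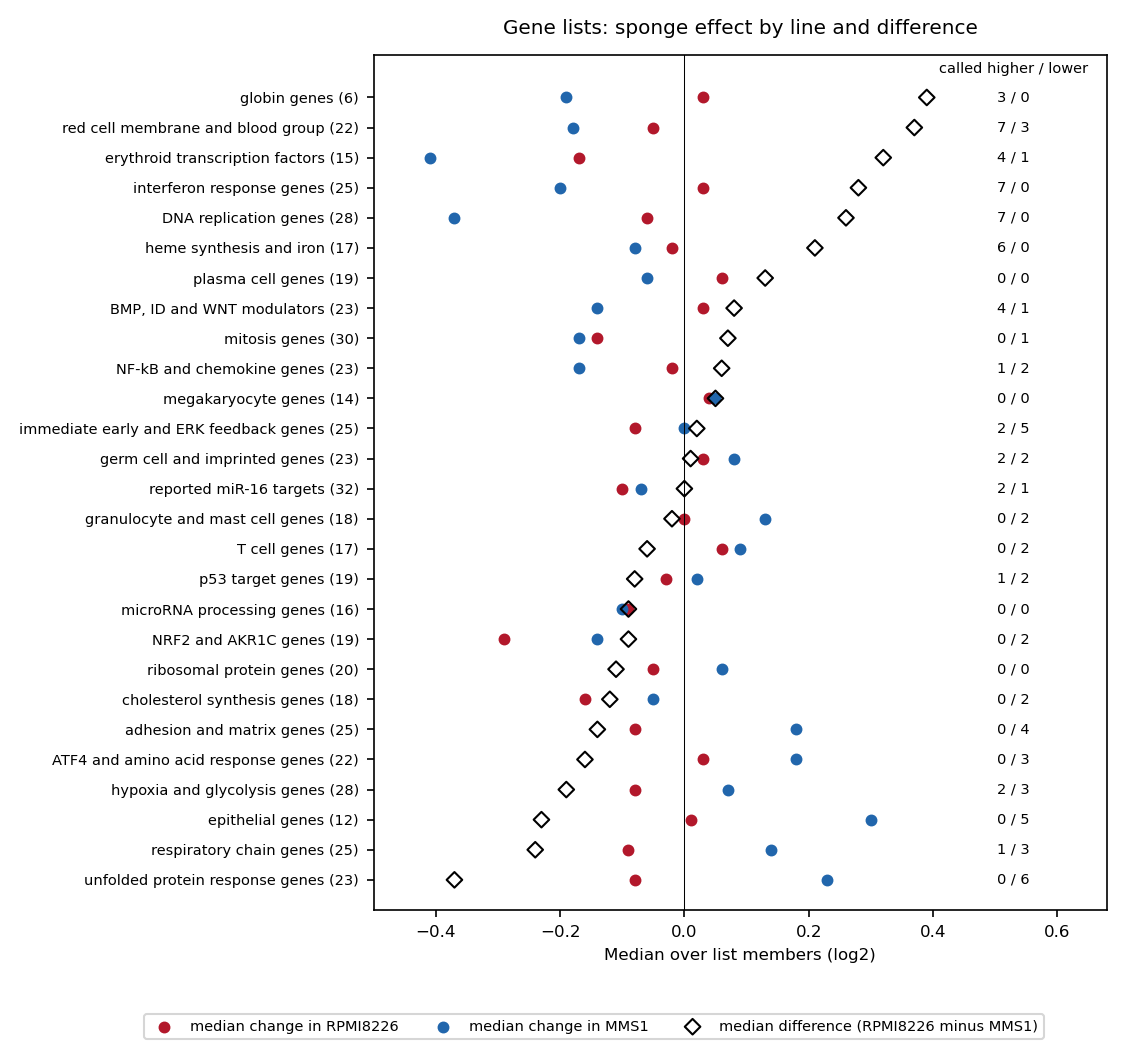
For each of 27 gene lists (number of measured members in brackets) the points give the median log2 change in RPMI8226 and in MMS1 and the diamond the median line difference. The counts at the right are members called higher and lower in the line difference. MMS1 medians spread from -0.41 to 0.30, and the diamonds run from 0.39 for globin genes to -0.37 for unfolded protein response genes.

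The shares of called genes held by each chromosome varied. Gene order was taken from a RefSeq table of GRCh38.p14 and used only to say which genes are neighbours, and the stretches below were picked with their values already seen. Chromosome 7 held 63 of the 647 lower genes (9.74%) and 16 of the 520 higher genes (3.08%), against 4.74% of all genes. Chromosome 10 held 36 higher genes (6.92%) and 13 lower genes (2.01%), against 3.95% of all genes. Chromosome 16 held 37 higher (7.12%) and 13 lower (2.01%), against 4.19%. Chromosome 2 held 62 higher (11.9%) and 52 lower (8.04%), against 6.65%. The moving median of the line difference over 30 neighbours, among 13023 brighter genes, lay between -0.21 and 0.24 for 95% of positions. On chromosome 7 it went beyond -0.30 over 22 neighbours, FAM220A to ANKMY2, with a median line difference of -0.52, 18 negative values and 9 calls, all lower. In that stretch RPMI8226 minus MMS1 had a median of -0.15 on the sponge arrays and 0.45 on the control arrays, where 21 of 22 genes were positive. A second stretch on chromosome 7, of 19 genes from STEAP1B to HNRNPA2B1, gave -0.56, with 0.03 on the sponge arrays and 0.55 on the control arrays. Medians hide genes that went both ways: in the stretch from FAM220A to ANKMY2, 5 genes were called higher and 3 lower in RPMI8226 on the sponge arrays, with SOSTDC1 at -2.89.

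Stretches with positive line differences lay elsewhere. On chromosome 3, 30 neighbours from UBE2E2 to ITGA9 had a median line difference of 0.34 (25 positive, 8 called higher). Their median signal was 7.71, 7.71 and 7.63 on the RPMI8226 sponge arrays, 7.76, 7.85 and 7.90 on the RPMI8226 controls, 7.26, 6.98 and 6.98 on the MMS1 sponge arrays, and 7.66, 7.49 and 7.60 on the MMS1 controls. Here the MMS1 sponge arrays were the low group, with a median change of -0.40. On chromosome 16, 23 neighbours from PGP to PAQR4 had a median of 0.45 (20 positive, 6 called higher), with 0.01 in RPMI8226 and -0.41 in MMS1. What sets these stretches apart was not tested.

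**Figure D5:**
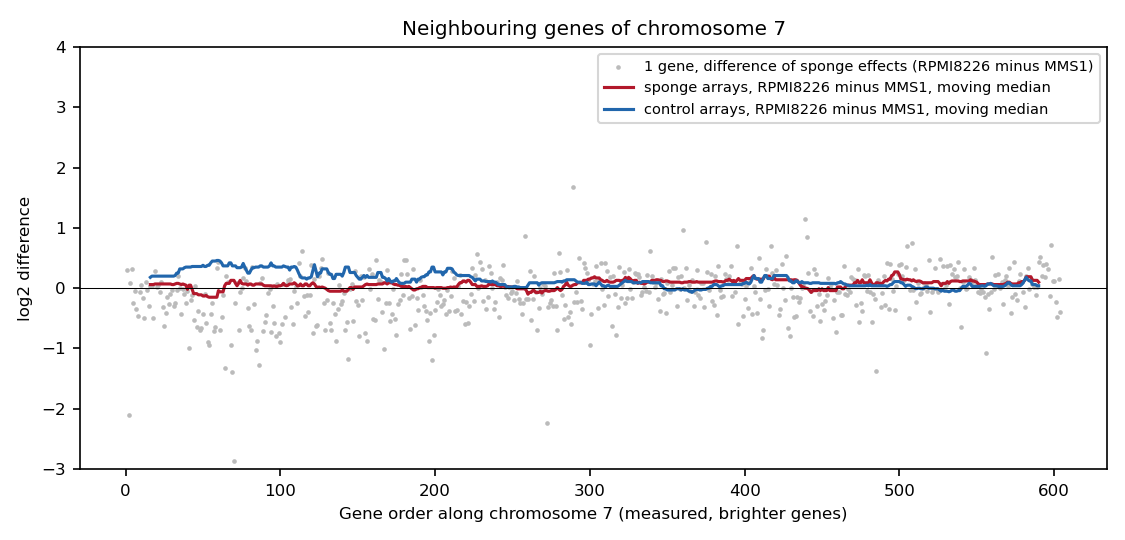
Measured brighter genes of chromosome 7 in their order along the chromosome, with each gene's line difference in log2 units as a grey point. SOSTDC1 (-5.24) lies below the plotted range and is not drawn. The lines are moving medians over 30 genes of RPMI8226 minus MMS1 on the sponge arrays and on the control arrays. Along the first part of the order the control line lies above 0 while the sponge line stays near 0, and further right they run together.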

How the data were processed

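Transcript levels were measured on 12 Affymetrix arrays of 54675 probe sets in 4 groups of 3, grouped by their titles. The deposited values are log2 signals, from 4.00 to 14.71, with a lower bound of 4 (16 on the linear scale). The authors' summarization and scaling are not given in the sources used here, and no further normalization was applied. Per the labels' protocols, RNA was purified on RNeasy columns and amplified in 2 rounds. Detection flags were not used. After 62 control probe sets were left out, limma 3.58.1 (R 4.3.3) fitted 1 mean per group to 54613 probe sets (8 residual and 4.92 prior degrees of freedom), and contrasts gave both sponge changes and their difference. The fit was tested on simulated data. Counts were made in Python 3.11.15 with pandas 2.3.3 and numpy 2.4.6, and figures with matplotlib 3.10.9.

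Of the probe sets tested, 41091 name 1 gene, 1801 several and 11721 none in the platform annotation, and 42 gene identifiers had no RefSeq match and kept their older symbol. Each of 19775 genes is the probe set, naming it alone, with the highest mean over 12 arrays. Probe sets of the x_at kind (those of HBB, RAP1A, CXCL8, JUN, KRT8, KRT18, CD24, FN1 and IFITM3 among others) can take signal from related transcripts. Members, the 27 gene lists and the naming rule were chosen with earlier results of these data known. The rule took the 10 largest called line differences each way with separated arrays in the line of larger change, the 6 largest opposite changes, up to 5 each way larger in RPMI8226, up to 3 called members a list, and HBB, HBD, BCL2, JUN, DLEU2 and SMC4. Other named genes are further called list members, or were chosen after their values were seen. Genes of the Y chromosome and XIST were not named. Alternatives were quantile normalization, a replicate block, brighter probe sets only, an intensity trend with a robust prior, the mean over probe sets of a gene, and leaving out each array; for the list counts these were chosen after the data had been seen.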

Additional observations from a re-analysis of the deposited data

Results flagged for a closer look

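For 81 of the 85 genes named by the rule, the sponge change differed between the lines by limma's test of the difference itself, at an adjusted p under 0.05. Values are the RPMI8226 change minus the MMS1 change on the log2 scale, and 34 were positive and 47 negative. Line differences were largest in TEX19 (5.88), MEG3 (4.48), EXOC6B (4.43), MFNG (3.80), RAP1A (3.53), CHMP6 (3.12), FYB1 (3.01), LINC00462 (3.0) and PLA2G2A (2.93). Next came NSG1 (2.86), ALAS2 (2.80), CA1 (2.74), HBZ (1.92), KLF1 (1.70), ISG15 (1.41), ETS1 (1.17), ID2 (1.15) and GFI1B (1.08). Smaller positive differences were those of HBQ1 (1.07), TK1 (1.05), XPC (1.03), OAS3 (1.01), ZFPM1 (0.92), LEF1 (0.92), CDC45 (0.91), GINS2 (0.81) and PFKP (0.80). The smallest positive differences were IFITM3 (0.78), SLC25A37 (0.67), PURA (0.65), ALAS1 (0.63), NFKBIA (0.62), ATP5F1C (0.53) and HBD (0.52).

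Negative line differences were largest in CD3D (-5.74), KCNC2 (-5.43), SOSTDC1 (-5.24), CALB1 (-4.71), ANXA1 (-4.68), MUC19 (-4.38), NLRP7 (-4.37), PRG2 (-4.18) and CSDC2 (-3.74). They were followed by PRDM11 (-3.45), IGFBP2 (-3.41), CXCL8 (-3.10), KRT8 (-2.86), CD24 (-2.70), RHAG (-2.62), CD36 (-2.24), GAS2 (-2.11) and AKR1C3 (-1.76). Further down stood MS4A3 (-1.73), SQLE (-1.68), FN1 (-1.60), TIMP3 (-1.46), PLAGL1 (-1.38), RABGGTB (-1.37), HSPA5 (-1.28), PLCL1 (-1.24) and KRT18 (-1.21). The genes ANLN (-1.17), HSP90B1 (-1.16), MSMO1 (-1.16), IL6 (-1.03), DELEC1 (-1.03), PMAIP1 (-0.93), JUN (-0.92), PDIA6 (-0.90) and IER3 (-0.89) came after these. The smallest negative differences were SLC7A11 (-0.85), DUSP1 (-0.84), SESN2 (-0.81), BNIP3 (-0.79), NDUFV2 (-0.75), CD7 (-0.72), NDUFV1 (-0.70), CDKN1A (-0.65) and ANKRD37 (-0.60). The last were H2BC12 (-0.56) and SLC3A2 (-0.54). The genes were named because they passed this test, so their number is set by the rule.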

How the results depend on the processing

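Counts of probe sets moved by over 1.5 times under several settings. With brighter probe sets only, the line difference gave 4267 calls (1742 higher) and 2026 genes, RPMI8226 gave 1268, and 88 genes passed with opposite signs. With an intensity trend and a robust prior, the line difference gave 4649 calls (1782 higher, 2867 lower) and 2120 genes, RPMI8226 gave 1766, and 136 genes had opposite signs. Leaving out each array in turn gave 1845 to 2797 calls in the line difference, 690 to 1242 higher, 1079 to 1813 lower and 784 to 1177 genes. It gave 22 to 723 calls in RPMI8226 and 3 to 26 genes of opposite sign, both highest without MMS1 sponge replicate 1, and 3730 to 5570 calls in MMS1. Why these counts moved was not tested.

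Replicate numbers did not pair the arrays: residuals of same-numbered arrays of different groups correlated at -0.07 to 0.06, and of other arrays at -0.06 to 0.09. With replicate number as a block, the line difference gave 2145 calls and 894 genes, MMS1 gave 4908, RPMI8226 gave 32 and 5 genes had opposite signs. Quantile normalization gave 3519 calls and the mean over probe sets 1441 genes. The share of higher calls was 39.3%, and 35.2% to 47.1% under the alternatives. Of 81 called named genes, 62 passed under every alternative tried. Of the 19 that did not, 11 lost their call without at least 1 array, among them CD7, SLC3A2, CDKN1A, ANKRD37, ATP5F1C, LEF1 and NFKBIA, and 11 with the mean over probe sets, among them PRDM11, HSPA5, DUSP1 and GINS2. ETS1 turned to -0.09 there. The lower bound and 3 arrays a group limit what could be seen, and depth does not apply to arrays.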

Other observations

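Of the 2786 probe sets called in the line difference, 492 (17.7%) have no single gene symbol and are not named here. Over the called genes, 1545 further probe sets of the same genes were measured, and 1178 of them (76.2%) had the same sign as the one used. Of the 1545, 412 were called the same way and 7 the opposite way. Among the 911 of them that were brighter than the median probe set, 766 (84.1%) had the same sign.

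Of the 23 genes called in both lines, 9 were not called in the line difference, and 10 were called there with opposite signs.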
